A study of Drosophila melanogaster with 6 samples.

Results

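Glutathione S-transferases and antioxidant enzymes are described here by 50 of the 17494 genes listed for each sample. They were chosen by name, as every gene whose symbol starts with Gst or Prx together with Sod1, Sod2, Sod3, Cat, Trx-2, Trxr-1, Gclc, Gclm, Jafrac1 and PHGPx. Of these, 35 are Gst genes of the classes D, E, O, S, T and Z, and 15 encode antioxidant enzymes. RNA was sequenced from macrophages of Drosophila embryos, sorted by their mCherry label, in 3 samples of each genotype. Macrophages of mac>DfosDN embryos (w; +; srpHemo-Gal4, srpHemo-3xmCherry/UAS-DfosDN) expressed DfosDN, a version of the bZIP factor Dfos that acts as a dominant negative, without the domain that activates transcription. Control macrophages (w; +; srpHemo-Gal4, srpHemo-3xmCherry/+) carried the same macrophage driver and marker without the transgene. Both genotypes were collected at 29°C and stage 11. The comparison asks which of these genes differ in RNA level when DfosDN is expressed in macrophages.

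Glutathione S-transferases join glutathione to reactive compounds and so make them easier to remove, and in insects the D and E classes have expanded into clusters of neighbouring genes. Superoxide dismutases turn superoxide into hydrogen peroxide, which catalase and the peroxiredoxins break down. Flies lack glutathione reductase, and thioredoxin with its reductase recycles glutathione in its place. Many of these genes are known targets of the bZIP factor CncC, which Keap1 holds in check.

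The deposited values are on the TPM scale (reads per length of a gene, as a share of the total over all genes), but every value of 1 or more has lost its decimal point. The decimal point was placed again from the whole number of reads that each value must stand for, as a power of 10 chosen by a model that has a mean for each genotype. This gave values for 47 of the 50 genes and for 11758 genes in all, with between 8412695 and 9804476 reads per sample. Prx5 and GstE4 were listed at 0 in all 6 samples. Exons of Prx5 overlap those of CG7215 on the same strand. How reads on such overlaps were counted is not given in the sources used here, so the 0 of Prx5 need not mean absent RNA. GstD4 was set aside because its power of 10 stayed uncertain, with 6, 27 and 89 possible reads in mac>DfosDN and 30, 31 and 5 in control macrophages. Levels below are TPM scaled between samples by trimmed mean of M-values (TMM). Log2 fold changes are differences of log2(TPM + 1), mac>DfosDN minus control, which understate the change of genes with low levels. P-values are from limma with Benjamini-Hochberg adjustment over the 7583 genes with at least 10 reads in at least 3 samples, and a gene was called at an adjusted p below 0.05. Counts at an unadjusted p below 0.05 are given without the share of all genes at that level, and no excess is read from them. The study describes the samples of a genotype as biological replicates of the sort. In bulk RNA, fewer cells of a type and less RNA per cell cannot be told apart.

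All 12 macrophage markers looked for had reads. So did all listed markers of crystal cells, neurons and glia, muscle, epidermis and trachea, midgut and germ line, so that detection alone does not tell cell types apart. The summed level of the macrophage markers was 8711 to 13093 TPM in mac>DfosDN and 15737 to 21453 TPM in control macrophages. Most of it came from NimC4, an engulfment receptor, with means of 9242.5 TPM in mac>DfosDN and 15529 TPM in control macrophages. Of the 12 markers, 10 had a log2 fold change below 0, with a median of -0.63. At an unadjusted limma p below 0.05, 6 were lower (Pxn, vkg, Col4a1, SPARC, NimC4 and drpr) and 1 higher, and after Benjamini-Hochberg adjustment none of the 6 was called. The marker that was higher, gcm, which directs cells to the macrophage fate, was called. Hml had 0.0551, 0.295 and 0.211 TPM in mac>DfosDN and 0.188, 0.554 and 10.6 TPM in control samples. Control sample 3 had 443 TPM of vkg, 647 TPM of Col4a1 and 1115 TPM of SPARC. The other control samples had at most 204 TPM of vkg, 341 TPM of Col4a1 and 623 TPM of SPARC. Crystal cell markers, of the other blood cell type, summed to 2002 to 2665 TPM in mac>DfosDN and 1651 to 5133 TPM in control samples, most of it from PPO2. Of the 4 tested, PPO1 was lower at an unadjusted limma p below 0.05, with overlapping values and means of 211 TPM in mac>DfosDN and 520 TPM in control samples. It was not called (log2 fold change -1.19, limma with Benjamini-Hochberg adjusted p = 0.0992). The other 3 had log2 fold changes above 0. Of the 3 midgut markers, all detected, the sum was 6.70 to 13.1 TPM in mac>DfosDN and 3.78 to 5.87 TPM in control samples. GATAe and fkh were higher in mac>DfosDN at an unadjusted limma p below 0.05, without overlap. Neither was called (limma with Benjamini-Hochberg adjusted p = 0.0503 for GATAe and 0.0870 for fkh). Try29F had a log2 fold change of -0.47 and overlapping values. Markers of neurons and glia, muscle, and epidermis and trachea had summed levels of 12.4 to 38.9 TPM over all samples, overlapping between the genotypes, and those of the fat body, with Lsp2 listed at 0, and the germ line reached at most 1.80 TPM. The part of these markers in the results below was not tested. Reads on kay, which encodes Dfos and shares sequence with the transgene, gave 15.6, 18.3 and 14.5 TPM in mac>DfosDN and 5.79, 12.6 and 12.1 TPM in control macrophages (log2 fold change 0.68, SE 0.30, limma with Benjamini-Hochberg adjusted p = 0.274).

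The summed level of the Gst genes was lower in every mac>DfosDN sample than in any control sample, at 0.684 of the control mean, while that of the antioxidant enzymes overlapped between the genotypes. Of the 36 genes of the family that were tested, GstT4 and GstO2 were called lower and Prx2540-1 and Sod3 higher in mac>DfosDN macrophages. No call held in every alternative fit that tested the gene. GstT4 was called in 14 of 17 such fits, Prx2540-1 in 13 of 18, GstO2 in 10 of 17 and Sod3 in 5 of 18. Among all genes tested, 1.46% were called lower and 1.17% called higher. The values of the 3 mac>DfosDN samples all lay below those of the 3 control samples in 11 of the 36 genes (30.6%) and all above in 2 (5.56%), against 11.6% and 11.4% of all genes tested. Those all below were 7 of 22 Gst genes (31.8%) and 4 of 14 antioxidant genes (28.6%). Those all above were 0 Gst genes and 2 antioxidant genes (14.3%). No comparison of 3 samples with 3 can give an exact permutation p below 0.1. The log2 fold change was negative in 17 of the 22 tested Gst genes and in 9 of the 14 tested antioxidant genes, against 49.9% of all genes. Its median was -0.34 in the Gst genes and -0.11 in the antioxidant genes, against 0.00148 in all genes.

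In control macrophages 10 of the 47 genes had mean levels of 100 TPM or more and together held 81.4% of the summed level of the family. They were PHGPx, GstE6, GstE12, Prx2540-1, Cat, Trx-2, Sod1, GstT4, Gclm and Prx2540-2. Each was above at least 93.9% of the genes with restored values. A further 12 genes had 10 to 100 TPM, 15 had 1 to 10 TPM and 10 had less than 1 TPM, among them Sod3. The methods of the study name a 3′ end library kit, whose reads do not grow with the length of a gene, so that the order of genes on a scale per length is tied to that scale. The SDs of the control means overlapped for neighbours such as GstE12 (281 ± 29.4 TPM) and Prx2540-1 (278 ± 41.2 TPM, SD, n = 3).

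**Figure D1:**
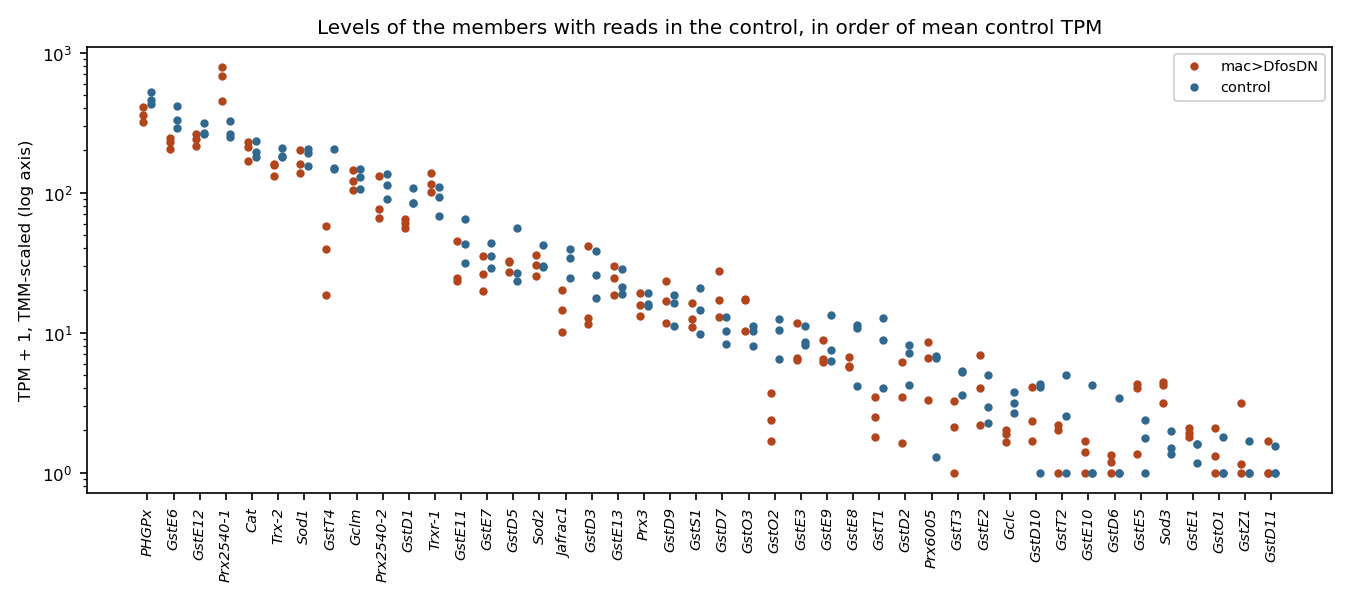
Levels of the 44 genes with reads in control macrophages, ordered from left to right by mean control TPM, on a log axis of TPM + 1. Each point is 1 sample, with mac>DfosDN left of control for each gene. GstT4 (mean 37.7 TPM in mac>DfosDN, 167 TPM in control) and Prx2540-1 (mean 637 TPM in mac>DfosDN, 278 TPM in control) stand out among the abundant genes.

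The theta class of transferases, GstT, had a summed level in mac>DfosDN macrophages of 0.229 of that in control macrophages. GstT4 lies on chromosome X (13404749 to 13409323 in the BDGP6.54 annotation) and was the most abundant gene of its class. It had 38.4, 17.6 and 57.1 TPM in mac>DfosDN and 150, 204 and 147 TPM in control macrophages. Every mac>DfosDN sample was far below the lowest control sample. The mean was 37.7 ± 19.7 TPM in mac>DfosDN and 167 ± 32.0 TPM in control macrophages (SD, n = 3), a ratio of 0.226. The log2 fold change was -2.25 (SE 0.35, adjusted p = 0.00983 by limma with Benjamini-Hochberg adjustment), and it was called with each sample left out in turn. The call rests on the placing of decimal points. The digits of control sample 1 allow 149 or 1490 reads, of which 1490 was chosen, and a model without the genotypes put mac>DfosDN sample 2 at 1430 in place of 143 reads. Under that model the posterior of GstT4 was 0.813, below the limit of 0.9, and the gene was set aside. With the limit dropped as well, its log2 fold change was -1.16 (adjusted p = 0.254). The study's own test, made on its read counts of these samples, lists GstT4 among the genes lower with DfosDN.

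The other members of the class had fewer reads. GstT1 had 2.47, 1.51 and 0.785 TPM in mac>DfosDN and 7.86, 3.01 and 11.8 TPM in control macrophages. GstT3 had 2.27, 1.10 and 0 TPM in mac>DfosDN and 2.59, 4.30 and 4.24 TPM in control macrophages. In neither gene did the genotypes overlap, and neither passed the adjustment, with log2 fold changes of -1.62 (SE 0.44, adjusted p = 0.0829) for GstT1 and -1.29 (SE 0.42, adjusted p = 0.144, limma with Benjamini-Hochberg adjustment) for GstT3. GstT1 passed without control sample 2 (adjusted p = 0.0303). GstT2, next to GstT1 on the same chromosome arm, had at most 25 reads and was not tested. The summed level of the class was 44.3, 21.3 and 57.9 TPM in mac>DfosDN and 160, 212 and 167 TPM in control macrophages, and most of it was GstT4.

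The omega class, GstO, whose members act on dehydroascorbate and other oxidized compounds, held a gene that fell and a gene that did not pass the test. GstO2 had 2.67, 1.38 and 0.673 TPM in mac>DfosDN and 9.42, 5.46 and 11.4 TPM in control macrophages. The mean was 1.58 ± 1.01 TPM in mac>DfosDN and 8.77 ± 3.04 TPM in control macrophages (SD, n = 3), a ratio of 0.180. Its log2 fold change was -1.95 (SE 0.37, adjusted p = 0.0233, limma with Benjamini-Hochberg adjustment), and the lowest control sample was above the highest mac>DfosDN sample. The call was lost without mac>DfosDN sample 2 or 3 and without control sample 1 or 3, and adjusted p was 0.0201 to 0.0917 over the 6 fits that left out a sample. It was also lost with limma-voom (log2 fold change -2.57, adjusted p = 0.0512), and without the genotypes in the model GstO2 was set aside, with a posterior of 0.825. All 3 GstO genes lie between 8518885 and 8524866 on chromosome 3L. GstO3, the most abundant of the class, had 16.5, 9.23 and 16.0 TPM in mac>DfosDN and 10.2, 9.24 and 7.06 TPM in control macrophages, and the values overlapped (log2 fold change 0.57, 95% interval -0.05 to 1.20, adjusted p = 0.326 by limma with Benjamini-Hochberg adjustment). GstO1 had at most 8 reads in a sample and was not tested. Exons of GstO2 overlap those of se on the opposite strand, and whether strand was used in counting is not given in the sources used here. The gene se, which encodes another enzyme of the omega class, had between 0 and 7 reads.

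The delta class, GstD, has its 11 genes between 12364776 and 12385624 on chromosome 3R, and none of the 7 that were tested was called by limma. At an unadjusted p below 0.05, 1 was lower and 1 higher. GstD1, the most abundant of the class and a widely used reporter of CncC activity, had 60.0, 54.5 and 63.6 TPM in mac>DfosDN and 83.8, 83.3 and 106 TPM in control macrophages. Each mac>DfosDN sample was below each control sample, and the mean was 59.4 ± 4.59 TPM in mac>DfosDN and 91.2 ± 13.1 TPM in control macrophages (SD, n = 3). The log2 fold change of GstD1 was -0.60 (SE 0.16) and did not pass the adjustment (adjusted p = 0.0797, limma with Benjamini-Hochberg adjustment). GstD7, in the same cluster, had 11.8, 26.5 and 16.0 TPM in mac>DfosDN and 9.24, 11.9 and 7.29 TPM in control macrophages. Its genotypes overlapped, and its log2 fold change of 0.82 (SE 0.31) did not pass either (adjusted p = 0.208). GstD2, GstD3, GstD5, GstD9 and GstD10 had log2 fold changes of -0.95 to 0.15 and overlapping values, with 95% intervals that held 0. GstD6, GstD8 and GstD11 had at most 15 reads in any sample and were not tested. Genes that stand side by side in this cluster are similar in sequence, and how reads shared between copies were treated is not given in the sources used here.

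The epsilon class, GstE, had the highest summed level of the Gst classes, and none of its 9 tested genes was called by limma, with 1 lower at an unadjusted p below 0.05. GstE6, its most abundant gene, had 228, 204 and 243 TPM in mac>DfosDN and 288, 329 and 411 TPM in control macrophages. The genotypes did not overlap. The mean was 225 ± 19.6 TPM in mac>DfosDN and 343 ± 62.4 TPM in control macrophages (SD, n = 3), with a log2 fold change of -0.59 (SE 0.16, adjusted p = 0.0755 by limma with Benjamini-Hochberg adjustment). GstE12 had 260, 240 and 214 TPM in mac>DfosDN and 266, 261 and 315 TPM in control macrophages, which do not overlap either, though the nearest samples were less than 2 TPM apart. Its log2 fold change was -0.24 (95% interval -0.54 to 0.07). The other 7 tested genes, GstE2, GstE3, GstE7, GstE8, GstE9, GstE11 and GstE13, had log2 fold changes of -0.58 to 0.30 and overlapping values. GstE1, GstE5, GstE10 and GstE14 had at most 26 reads in any sample and were not tested, and GstE4 was listed at 0. GstE14, which is known for a role in ecdysone synthesis, had reads in mac>DfosDN sample 1 alone, where it had 4.

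The sigma class has the single gene GstS1, and the zeta class has GstZ1 and GstZ2. GstS1 had 11.5, 9.93 and 15.2 TPM in mac>DfosDN and 13.6, 19.9 and 8.76 TPM in control macrophages, with overlapping values and a log2 fold change of -0.14 (95% interval -0.82 to 0.54). GstZ1 had 0.142, 2.14 and 0 TPM in mac>DfosDN and 0, 0.686 and 0 TPM in control macrophages, and GstZ2 had reads in mac>DfosDN sample 2 alone. Neither zeta gene passed the filter on low reads.

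**Figure D2:**
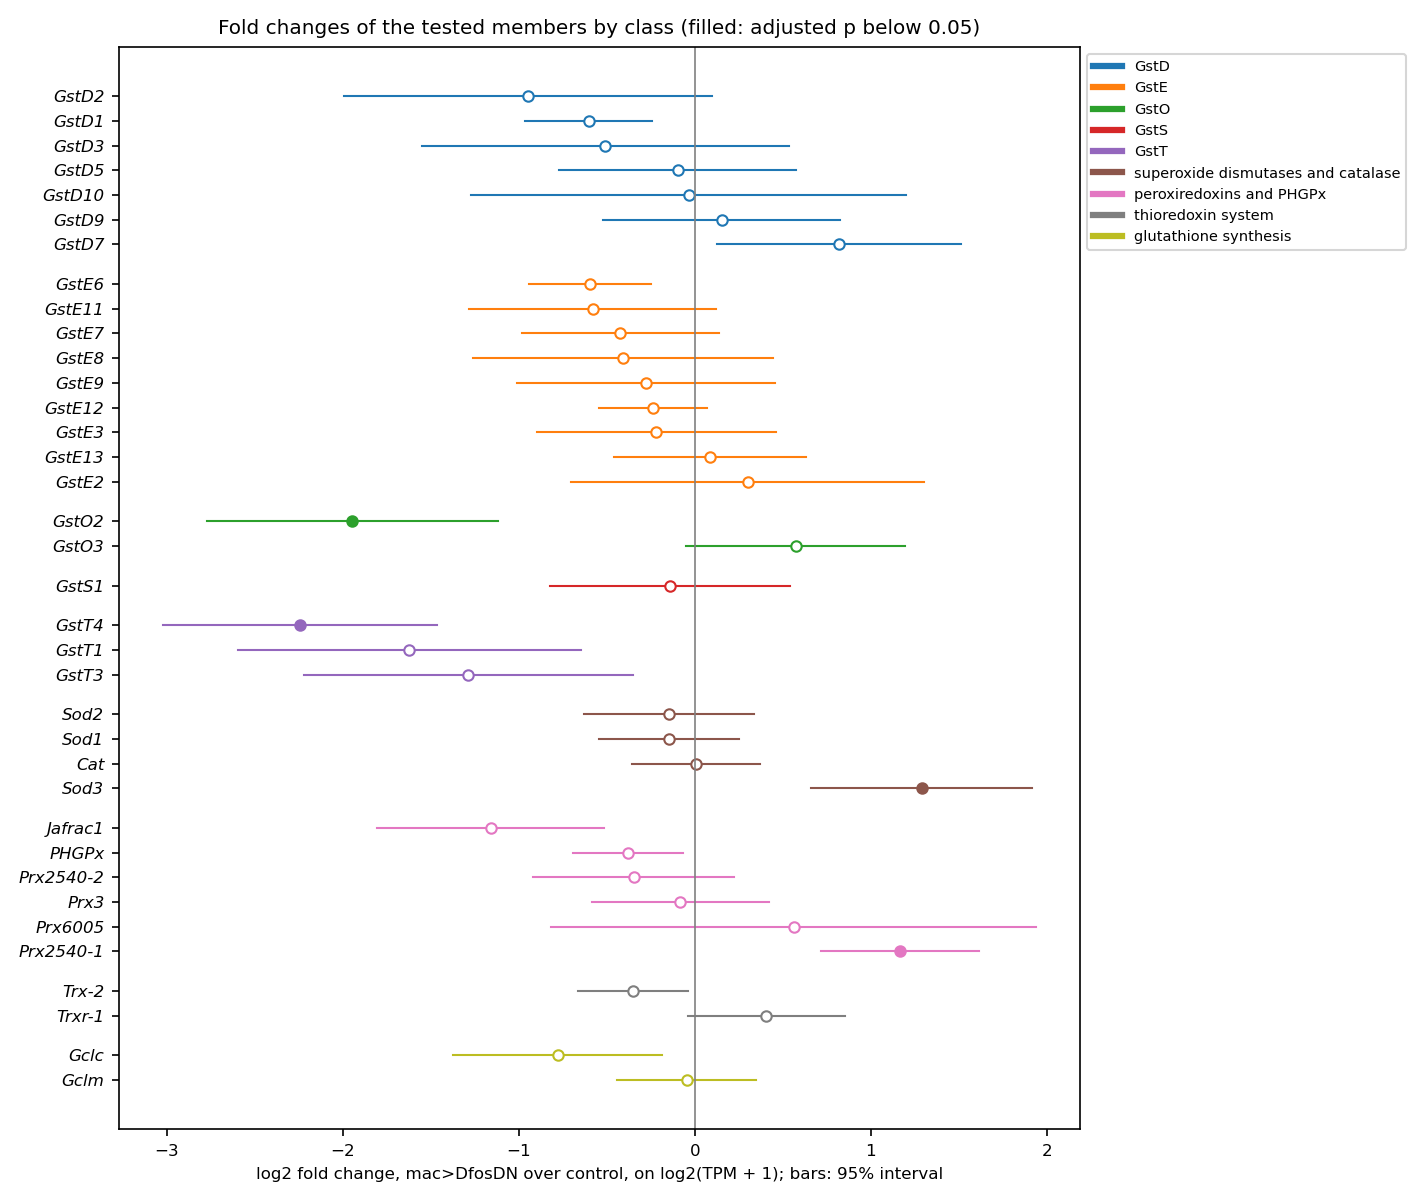
Log2 fold changes of the 36 tested genes, mac>DfosDN over control on log2(TPM + 1), grouped by class from top to bottom, with 95% intervals from limma as bars. Filled points are called at an adjusted p below 0.05: GstO2 and GstT4 to the left of 0, Sod3 and Prx2540-1 to the right.

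Among the superoxide dismutases and catalase, Sod3 rose while the abundant enzymes had overlapping values. Sod3 encodes an extracellular superoxide dismutase and was the lowest of these genes. It had 3.40, 2.16 and 3.23 TPM in mac>DfosDN and 0.364, 0.496 and 0.981 TPM in control macrophages, from 53, 29 and 50 reads in mac>DfosDN and 6, 8 and 14 reads in control macrophages. All mac>DfosDN samples were above all control samples, and the ratio of means was 4.78. The log2 fold change was 1.29 (SE 0.28, adjusted p = 0.0430, limma with Benjamini-Hochberg adjustment). The call was lost in each of the 6 fits that left out a sample, with adjusted p of 0.0786 to 0.129, and also under limma-voom (adjusted p = 0.159).

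Catalase, encoded by Cat, had 228, 167 and 211 TPM in mac>DfosDN and 193, 231 and 177 TPM in control macrophages. The log2 fold change of Cat was 0.01 with a 95% interval of -0.36 to 0.37, and 2.01 if every value is given the smallest reads its digits allow, where control sample 3 has 25 in place of 2500 reads. Sod1, the cytosolic dismutase, and Sod2, the mitochondrial dismutase, also overlapped between the genotypes. Their means were 166 ± 33.1 TPM for Sod1 and 29.4 ± 5.08 TPM for Sod2 in mac>DfosDN, against 182 ± 26.9 TPM for Sod1 and 32.9 ± 7.46 TPM for Sod2 in control macrophages (SD, n = 3).

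The peroxiredoxins, which reduce hydrogen peroxide through a reactive cysteine, held the most abundant gene that rose. Prx2540-1 had 784, 452 and 676 TPM in mac>DfosDN and 248, 325 and 261 TPM in control macrophages. The lowest mac>DfosDN sample was above the highest control sample. The mean was 637 ± 169 TPM in mac>DfosDN and 278 ± 41.2 TPM in control macrophages (SD, n = 3), a ratio of 2.29, and the log2 fold change was 1.17 (SE 0.20, adjusted p = 0.0156 by limma with Benjamini-Hochberg adjustment). The digits of Prx2540-1 were placed alike by the models with and without the genotypes, and the gene was called with both. The call was lost without mac>DfosDN sample 1 or 3 and without control sample 3, and adjusted p was 0.00721 to 0.0738 over the 6 fits that left out a sample.

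Prx2540-2 is a near copy of Prx2540-1 and lies beside it on the same chromosome arm, so that reads could be split between them. It had 131, 65.2 and 75.6 TPM in mac>DfosDN and 89.6, 134 and 112 TPM in control macrophages, which overlapped (log2 fold change -0.35, adjusted p = 0.536 by limma with Benjamini-Hochberg adjustment). The sum of both genes was 914, 517 and 752 TPM in mac>DfosDN and 337, 459 and 373 TPM in control macrophages. The sums did not overlap, with a mean of 728 ± 200 TPM in mac>DfosDN and 390 ± 62.6 TPM in control macrophages (SD, n = 3, exact 2-sided permutation p = 0.1). The level of Prx2540-1 over that of Prx2540-2 was 6.0, 6.92 and 8.95 in mac>DfosDN and 2.76, 2.42 and 2.34 in control macrophages, again with no overlap (exact 2-sided permutation p = 0.1).

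Jafrac1, a cytosolic peroxiredoxin, had 9.02, 19.2 and 13.5 TPM in mac>DfosDN and 23.4, 38.5 and 33.1 TPM in control macrophages. Each mac>DfosDN sample was below each control sample, and the ratio of means was 0.440. The log2 fold change of -1.16 (SE 0.29) did not pass the adjustment (adjusted p = 0.0697, limma with Benjamini-Hochberg adjustment). It passed with limma-voom (adjusted p = 0.0309), with a filter of 30 reads (adjusted p = 0.0428) and without control sample 1 (adjusted p = 0.0489). The digits of control samples 1 and 2 allow 28 and 45 reads in place of the 280 and 450 chosen, and with the smaller reads the log2 fold change of Jafrac1 is 0.81 (adjusted p = 0.726).

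PHGPx, which encodes a glutathione peroxidase homolog that acts on lipid peroxides, had 356, 317 and 409 TPM in mac>DfosDN and 425, 460 and 521 TPM in control macrophages. The genotypes did not overlap, and the difference was not called (log2 fold change -0.38, SE 0.14, adjusted p = 0.193 by limma with Benjamini-Hochberg adjustment). If every value is given the smallest reads its digits allow, the log2 fold change of PHGPx is 0.72, since the digits of control sample 3 allow 501 in place of 5010 reads. The mitochondrial Prx3 had a mean of 15 ± 2.95 TPM in mac>DfosDN and 15.8 ± 1.94 TPM in control macrophages (SD, n = 3), and Prx6005 had between 2 and 50 reads, both with overlapping values.

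Thioredoxin and its reductase had log2 fold changes of opposite sign, neither of which was called. Trx-2, a cytosolic thioredoxin, had 159, 155 and 131 TPM in mac>DfosDN and 178, 182 and 208 TPM in control macrophages, with no overlap (log2 fold change -0.35, SE 0.14, adjusted p = 0.228 by limma with Benjamini-Hochberg adjustment). Trxr-1, which returns electrons from NADPH to thioredoxin, had 99.6, 114 and 137 TPM in mac>DfosDN and 67.0, 108 and 91.2 TPM in control macrophages. These values overlapped, with a log2 fold change of 0.41 (95% interval -0.04 to 0.85), or 2.54 with the smallest reads allowed.

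Glutamate-cysteine ligase makes the first step of glutathione synthesis, with Gclc as its catalytic and Gclm as its modifier subunit. Gclc had 0.647, 0.889 and 1.01 TPM in mac>DfosDN and 1.67, 2.79 and 2.12 TPM in control macrophages. The genotypes did not overlap in Gclc, and the log2 fold change of -0.78 (SE 0.27) did not pass the adjustment (adjusted p = 0.161, limma with Benjamini-Hochberg adjustment). Gclm, more abundant on this scale, had 120, 104 and 144 TPM in mac>DfosDN and 127, 147 and 106 TPM in control macrophages, with overlapping values and a log2 fold change of -0.05 (95% interval -0.44 to 0.35), or -1.11 with the smallest reads allowed.

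**Figure D3:**
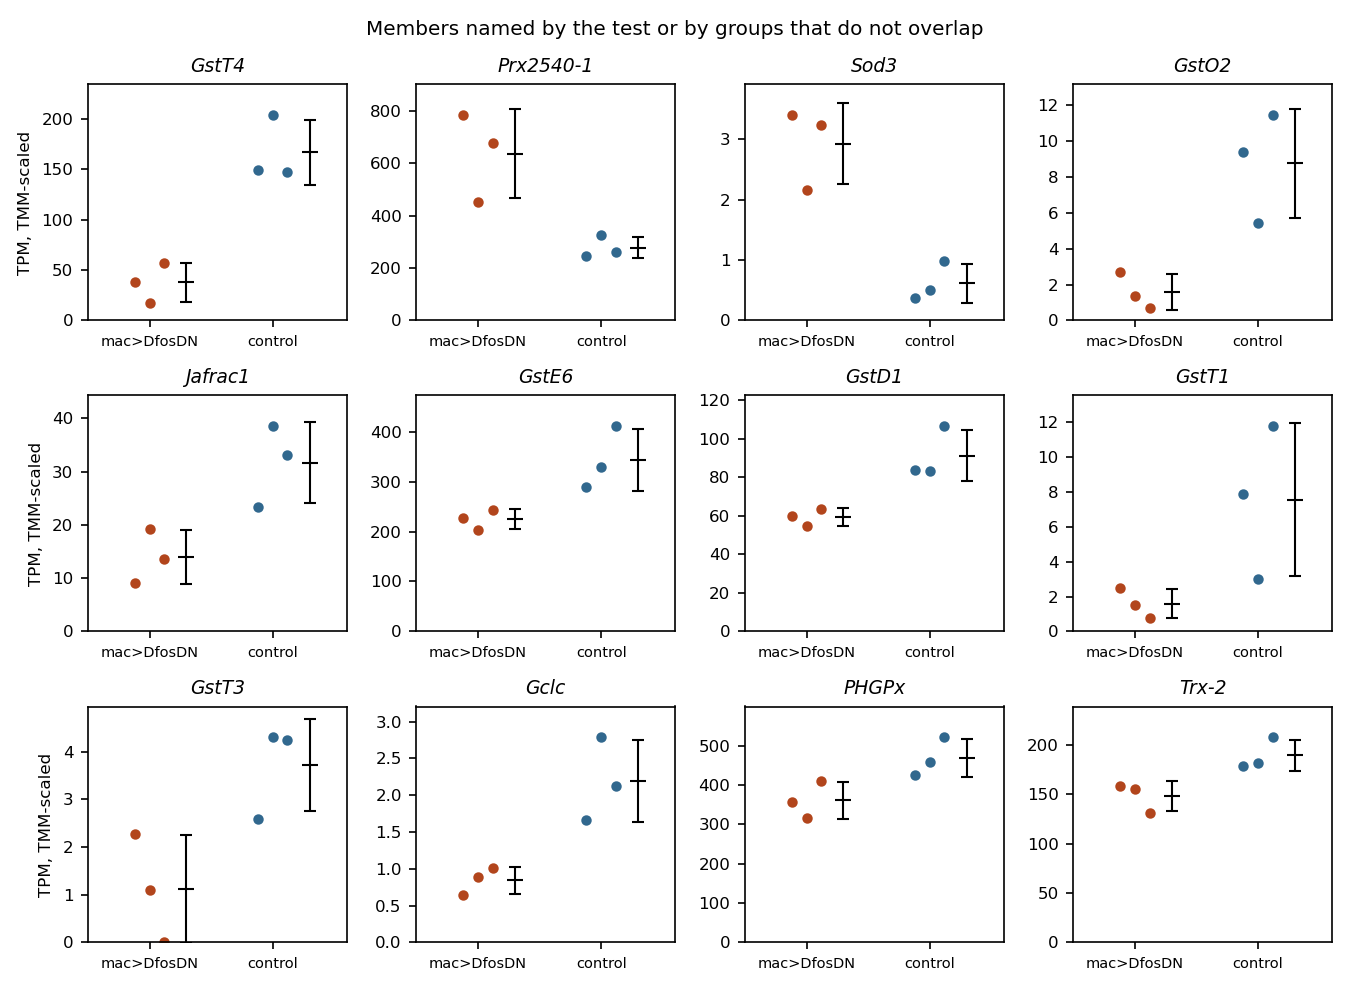
Levels of the 12 genes that were called or had the smallest unadjusted p among those whose genotypes do not overlap, in TMM-scaled TPM on linear axes that start at 0. Points are samples, with mac>DfosDN left and control right, and bars are the mean with 1 SD (n = 3, the lower end for GstT3 is drawn to the axis). Prx2540-1 and Sod3 are higher in mac>DfosDN and the other 10 genes are lower.

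Sums over classes separated the genotypes for the Gst genes and overlapped for the antioxidant enzymes. All Gst genes together had 848, 712 and 801 TPM in mac>DfosDN and 1034, 1169 and 1247 TPM in control macrophages, with no overlap. Their mean was 787 ± 69.0 TPM in mac>DfosDN and 1150 ± 108 TPM in control macrophages (SD, n = 3), a ratio of 0.684 (exact 2-sided permutation p = 0.1, the smallest p of this design). The summed level of the macrophage markers given above was also lower in every mac>DfosDN sample, and its part in this difference was not tested. Of the classes, the sums did not overlap for GstE, with 568 ± 34.4 TPM in mac>DfosDN and 754 ± 84.1 TPM in control macrophages, and for GstT, both with exact permutation p = 0.1 (n = 3). GstD had 149 ± 18.1 TPM in mac>DfosDN and 184 ± 27.0 TPM in control macrophages, which overlapped (exact permutation p = 0.2, n = 3). The antioxidant enzymes together had 2109, 1582 and 2043 TPM in mac>DfosDN and 1623, 1863 and 1714 TPM in control macrophages, which overlapped (exact permutation p = 0.4). Peroxiredoxins with PHGPx were the only antioxidant class with a higher mean in mac>DfosDN, 1123 ± 223 TPM against 910 ± 88.0 TPM in control macrophages (SD, n = 3, exact permutation p = 0.3). Most of its genes did not share this direction. Of its 6 tested genes, 4 had a log2 fold change below 0 and 2 above 0, and only Prx2540-1 was called. As a share of the summed level of the whole family, the Gst genes held 28.7%, 31.1% and 28.2% in mac>DfosDN and 38.9%, 38.6% and 42.1% in control macrophages. Sums weigh abundant genes most, and GstT4, GstE6 and GstE12 made up most of the Gst level. Of the antioxidant level, Prx2540-1 held 637 of 1911 TPM in mac>DfosDN and 278 of 1733 TPM in control macrophages (means). Whether the antioxidant sums overlap without Prx2540-1 was not tested.

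**Figure D4:**
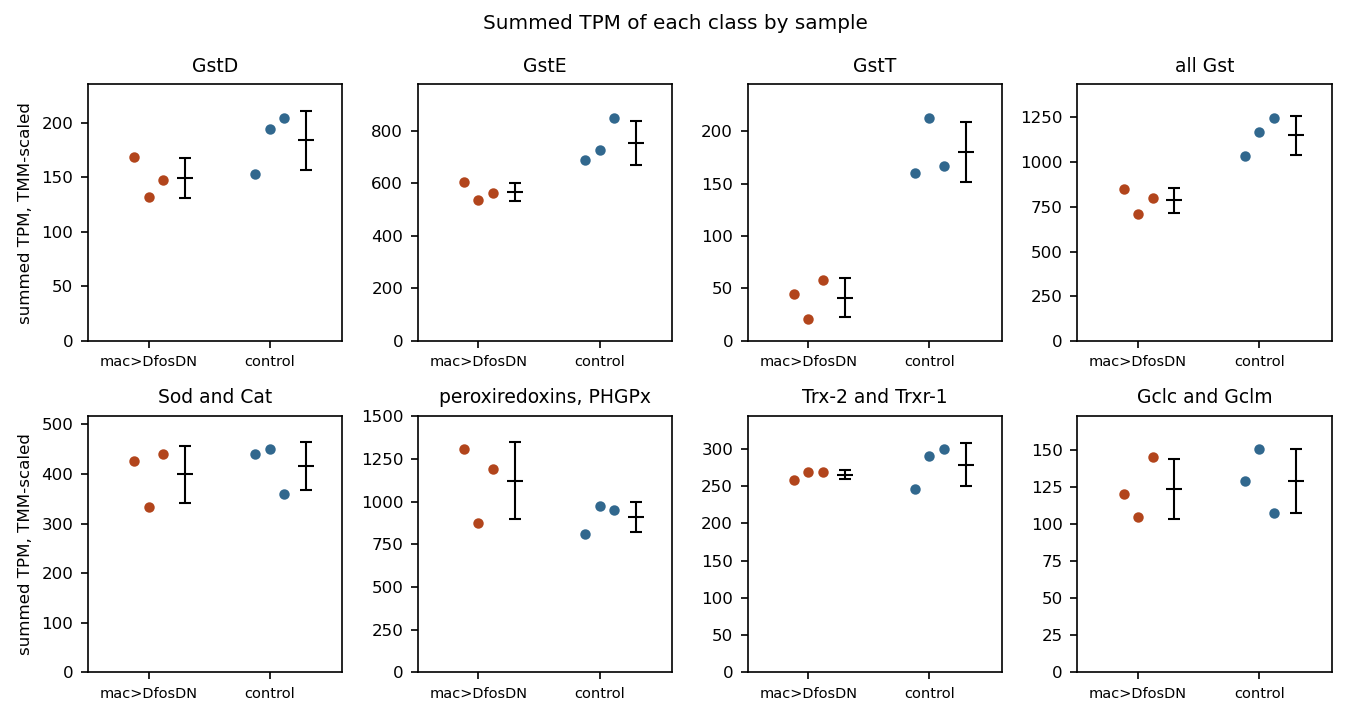
Summed TMM-scaled TPM of 7 classes and of all Gst genes by sample, with mac>DfosDN left and control right in each panel and the mean with 1 SD as bars (n = 3). GstE, GstT and all Gst genes are lower in every mac>DfosDN sample than in any control sample.

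Genes that regulate or supply these enzymes were read from lists of their own. A list of 6 regulators held cnc, Keap1 and maf-S of the CncC response together with Xrp1, Irbp18 and foxo. Of the 6, 2 were called lower and none higher, against 1.46% and 1.17% of all genes tested. The list was chosen with earlier results of these data known, so no excess is read from this count. The 2 genes called were Xrp1 and Irbp18, which encode bZIP proteins that pair with each other and act in stress responses. Xrp1 had 16.2, 21.5 and 26.7 TPM in mac>DfosDN and 83.8, 89.6 and 78.2 TPM in control macrophages (log2 fold change -1.94, SE 0.20, adjusted p = 0.00123 by limma with Benjamini-Hochberg adjustment). Irbp18 had 55.4, 67.2 and 65.8 TPM in mac>DfosDN and 140, 149 and 123 TPM in control macrophages (log2 fold change -1.12, SE 0.15, adjusted p = 0.00562). Both were called with each sample left out in turn, with the decimal points placed from all 6 samples. With the smallest reads their digits allow neither was called, and without the genotypes in the model Xrp1 was set aside. The study's own test of its read counts also lists Xrp1 as lower with DfosDN. The CncC gene cnc had 9.27 ± 1.12 TPM in mac>DfosDN and 13.3 ± 0.372 TPM in control macrophages (SD, n = 3, adjusted p = 0.293 by limma), and Keap1, maf-S and foxo did not pass either.

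Beyond the named enzymes, 1 of 5 tested genes on the list of further thioredoxins and peroxidases was called, and it was lower. This was Irc, which encodes a catalase known for its role in gut immunity, with 10.9, 8.63 and 5.73 TPM in mac>DfosDN and 23.5, 37.0 and 38.7 TPM in control macrophages (log2 fold change -1.86, SE 0.28, adjusted p = 0.00860 by limma with Benjamini-Hochberg adjustment). Among cytochrome P450 genes, 1 of 22 tested, Cyp9c1, was called lower, with 0.891, 0.950 and 1.05 TPM in mac>DfosDN and 4.71, 5.96 and 8.44 TPM in control macrophages, and none was called higher (4 were at an unadjusted p below 0.05 in limma). Of 2 tested methionine sulfoxide reductases, SelR was called lower, with 2.65, 3.04 and 3.72 TPM in mac>DfosDN and 17.0, 20.8 and 15.4 TPM in control macrophages. The direction for SelR turns with the placing of its digits, since the model without the genotypes gave a log2 fold change of 0.79 (adjusted p = 0.0910, limma with Benjamini-Hochberg adjustment).

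No gene was called by limma in the other lists. Of the 5 tested genes of glutathione synthesis and recycling, which include Gclc and Gclm, 1 was lower at an unadjusted p below 0.05, and the same held for 1 of the 2 tested genes of iron storage. None of the 5 tested genes of NADPH supply, of the metallothioneins, of which only MtnA was tested, or of the superoxide-producing oxidases, of which only Duox was tested, reached an unadjusted p of 0.05. Of the 4 tested genes whose listed symbol starts with Ugt, 3 belong to the enzymes that attach sugars to foreign compounds, and of these Ugt58Fa was lower and Ugt36Bc higher at that level. The other, now named Uggt, acts in protein folding and was at neither.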

How the data were processed

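RNA of FACS-sorted macrophages was measured in 6 samples, and groups and replicate numbers were taken from the labels. According to the methods of the study, the authors aligned reads to BDGP6 with STAR 2.5.1b, counted them per gene with HTSeq 0.5.4p3 on FlyBase annotation, and normalized and tested them with edgeR, voom and limma. The labels name standard Illumina libraries and the methods a 3′ end kit. The values the authors deposited are none of these counts but other values, on the TPM scale, with decimal points lost from 1 upward.

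Each value is reads times a constant of the sample over exon length (BDGP6.54 annotation). Among the powers of 10 that give whole reads, the one with the highest posterior under a negative binomial model with a mean per genotype was taken, and 272 genes with a posterior below 0.9 were set aside. In the 47 genes, 14 of 246 values above 0 were placed above the smallest power. Sod1 and Trxr-1 took a length within 25% of the annotated one from the values. A true difference near 10-fold is easily set aside or misplaced, and fitting a mean per genotype can favour differences between genotypes.

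The filter kept genes with 10 or more reads (scaled to the median library) in 3 or more samples and a total of 15 or more. TMM factors trimmed 30% of log ratios and 5% of intensities. Tests were limma on log2(TPM + 1) with an intensity trend, and exact permutation for sums. Pseudocounts, filters, scalings, limma-voom, other rules of restoration, a replicate block and leaving out samples were alternatives. Fits that left out a sample kept the decimal points placed from all 6 samples, so they do not test the placing. Software was Python 3.11.15 with SciPy 1.17.1 and NumPy 2.4.6, and limma 3.58.1 in R 4.3.3. The procedure was also run on simulated reads. These were drawn from a negative binomial model with the spread fitted to these data, so the run does not test whether that model holds.

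The genes, lists and rules were chosen with earlier results of these data known. Genes were named with every sample's value if called, if the genotypes did not overlap (up to 12 with the smallest p), if most abundant in their class, or if their decimal points stayed uncertain. GstE12, GstD7, Trxr-1 and Prx2540-2 were added after their values were seen. Listed symbols were matched by gene ID through current names, and Cyp1, a cyclophilin, was left out. Exons of 10 of the genes overlap exons of another gene, 1 of them, Prx5, on the same strand. No sequence is shown.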

Additional observations from a re-analysis of the deposited data

How the results depend on the processing

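The count of the 36 genes called lower was 2 and of those called higher 2. With a pseudocount of 0.1 or limma-voom on the restored reads, 1 was called higher. The 2 called lower with limma-voom were GstT4 and Jafrac1. Without a filter on low values and with the smallest power for every value, 0 were called lower and 0 higher, although 10 lower and 3 higher without the filter, and 6 lower and 3 higher with the smallest power, had an unadjusted limma p below 0.05. Restoration without conditions gave 0 lower and 1 higher, since GstT4 and GstO2 were set aside there, as were Jafrac1, Xrp1, Irc and Cyp9c1, and without conditions and limit it gave 1 lower and 1 higher. Leaving out a sample gave 1 to 3 lower and 0 to 1 higher. Among all genes, 111 were called lower and 89 higher, and these counts were 24 and 18 without the filter, 12 and 6 with the smallest power, 64 and 52 without conditions and limit, and 23 to 92 and 27 to 96 with a sample left out. Restoration without conditions gave 57 higher. Of the list genes, Irc and Cyp9c1 lost their calls without the filter, Cyp9c1 with limma-voom, and Xrp1, Irbp18, Irc and Cyp9c1 with the smallest power.

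The replicate block gave 3 called lower (GstT4, GstO2 and Jafrac1) and 1 higher (Prx2540-1). Deviations of samples with the same number correlated at -0.037, 0.0281 and 0.0347, against -0.0735 to 0.0416 for samples with different numbers. With 3 samples per genotype, these values cannot show whether samples with the same number were prepared together.

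Signs turned for Jafrac1 (0.81) and PHGPx (0.72) with the smallest power, and for SelR (0.79 in both cases) without conditions. None of these was called. The smallest power also moved Cat to 2.01, Trxr-1 to 2.54, Gclm to -1.11, GstT4 to -1.16 and Irbp18 to -0.20. With a sample left out, the log2 fold change of GstS1 ranged from -0.43 to 0.13, of Cat from -0.10 to 0.15 and of Gclm from -0.18 to 0.081. Class sums, as log2 of the ratio of means, moved by more than the spread between samples with the smallest power only, to 0.62 for peroxiredoxins and PHGPx, 0.28 for the thioredoxin system, -0.48 for glutathione synthesis and 0.33 for all antioxidant enzymes. Leaving out samples for the class sums was chosen after seeing the data. The cause of these changes was not tested. Sod3, GstO2, GstT1 and GstT3 had at most 141 reads in a sample, and the effect of depth was not tested.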
